A study of Rattus norvegicus with 10 samples.

Results

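A group of 9 genes of growth hormone signalling was followed in rat livers after a diet with or without noodle seasonings. They are the hormone receptor Ghr, the related prolactin receptor Prlr, the transcription factor Stat5b, the feedback inhibitors Cish and Socs2, the transcription factors Onecut1 and Bcl6, and the secreted products Igf1 and Igfals. All probe sets that the platform's gene table assigned only to 1 of these 9 genes were taken, which gave 16 of 20826 such probe sets and 9 of 14217 genes. The 9 genes were picked on signals and diet differences already seen in these livers, so their diet differences are given as a description. Where calls of the fit over all genes are counted among them, the count is no independent evidence.

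Liver RNA of 10 male rats aged 13 weeks was measured, with 1 Affymetrix array for each liver. The seasoned group (5 rats) ate a diet of 30 wt% instant noodle, with 26% of energy from fat, over 30 days. The control group (5 rats) ate that diet lacking the seasonings, so the noodle and the fat were common to both. Feeding was paired, at about 60 g per kg of body weight each day, with 12 h of light and 12 h of darkness. No strain is given in the labels. Seasoned animals carry the numbers 1, 4, 7, 10 and 13, and control animals 2, 5, 8, 11 and 14. The extraction text of the labels speaks of brain. The 6 hepatocyte markers had a mean log2 signal of 12.75 to 12.89 in seasoned livers and 12.70 to 12.90 in controls, and the 6 brain markers lay at 6.29 to 6.44 and 6.29 to 6.37.

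Growth hormone leaves the pituitary in pulses in male rats and binds its receptor on hepatocytes. The receptor activates the kinase Jak2, which phosphorylates Stat5b, and Stat5b then enters the nucleus. There it induces Igf1 and Igfals, the feedback inhibitors Cish and Socs2, and Onecut1, a homeodomain factor also called HNF6. Bcl6 is a repressor that binds much the same DNA motif as Stat5b, and growth hormone is known to lower it in liver. A low signal in whole liver can come from fewer cells of a type or from less RNA per cell, which cannot be told apart here.

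The motif shared by Stat5b and Bcl6 is printed for the member whose promoter held it most often, because Cish stands among the genes that differed most between livers. Promoter windows, from 250 bases before to 50 bases after each start site, came from RefSeq (build GRCr8) and were found for 7 of the 9 genes, all but Onecut1 and Socs2. The letters TTCNNNGAA were searched, which read the same on both strands. The window of Cish (chr8:116850719-116851018, plus strand) held 4 matches, shown in capitals and beginning 241, 230, 136 and 119 bases before the start site.
Cish: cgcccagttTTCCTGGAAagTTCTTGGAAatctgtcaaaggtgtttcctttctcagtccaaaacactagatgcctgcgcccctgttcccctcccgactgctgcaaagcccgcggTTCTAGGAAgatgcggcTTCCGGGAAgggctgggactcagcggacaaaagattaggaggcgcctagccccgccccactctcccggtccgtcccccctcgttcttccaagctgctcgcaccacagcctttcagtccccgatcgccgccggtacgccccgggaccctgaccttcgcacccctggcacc

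Of 33469 promoter windows of this length in the table, 8.87% held at least 1 match and 2 windows (0.00598%) held at least 4. Prlr has 2 start sites in the table, and the second held 1 match, beginning 176 bases before the start. Its surroundings (chr2:60909463-60909511, plus strand) are shown with the match in capitals.
Prlr: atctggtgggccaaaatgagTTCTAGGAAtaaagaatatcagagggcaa

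The windows of Bcl6, Stat5b, Ghr, Igf1 and Igfals and the first window of Prlr held 0 matches. The ONECUT core ATCGAT, which also reads the same on both strands, was in 0 windows of the members and in 0.896% of all windows. A match is a run of letters and not a measured binding site.

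The transcription factors Onecut1 and Bcl6 were set apart by 3 control livers. Onecut1 had log2 signals of 7.54, 8.14, 10.49, 10.84 and 10.34 in control animals 2, 5, 8, 11 and 14. In seasoned animals 1, 4, 7, 10 and 13 it was at 7.81, 7.23, 7.92, 7.36 and 8.03. Control animals 8, 11 and 14 were therefore high, while control animals 2 and 5 lay among or just above the seasoned livers. The means were 7.67 ± 0.35 (SD, n = 5) with seasonings and 9.47 ± 1.52 without, a difference of -1.80 ± 0.68 (SE). A second Onecut1 probe set gave -1.65, with the same 3 livers at 9.03 to 9.47 and the other 7 at 6.25 to 6.89.

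Bcl6 showed the opposite order in the same livers. Its signal was 9.61, 9.55, 8.29, 7.38 and 6.97 in control animals 2, 5, 8, 11 and 14, against 9.60, 10.14, 9.43, 9.97 and 9.68 in seasoned animals 1, 4, 7, 10 and 13. Control animals 8, 11 and 14 were the 3 lowest livers, and control animals 2 and 5 lay within the range of the seasoned livers. The group means were 9.76 ± 0.29 (SD, n = 5) with seasonings and 8.36 ± 1.21 without, a difference of 1.40 ± 0.54 (SE). Bcl6 is also known from germinal centre B cells. The 4 measured lymphocyte markers of 5 listed had a mean signal of 6.23 in all 10 livers. All 4 were near-constant and under the array medians, so they could not show a change, and the part of lymphocytes in the Bcl6 signal was not tested.

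**Figure D1:**
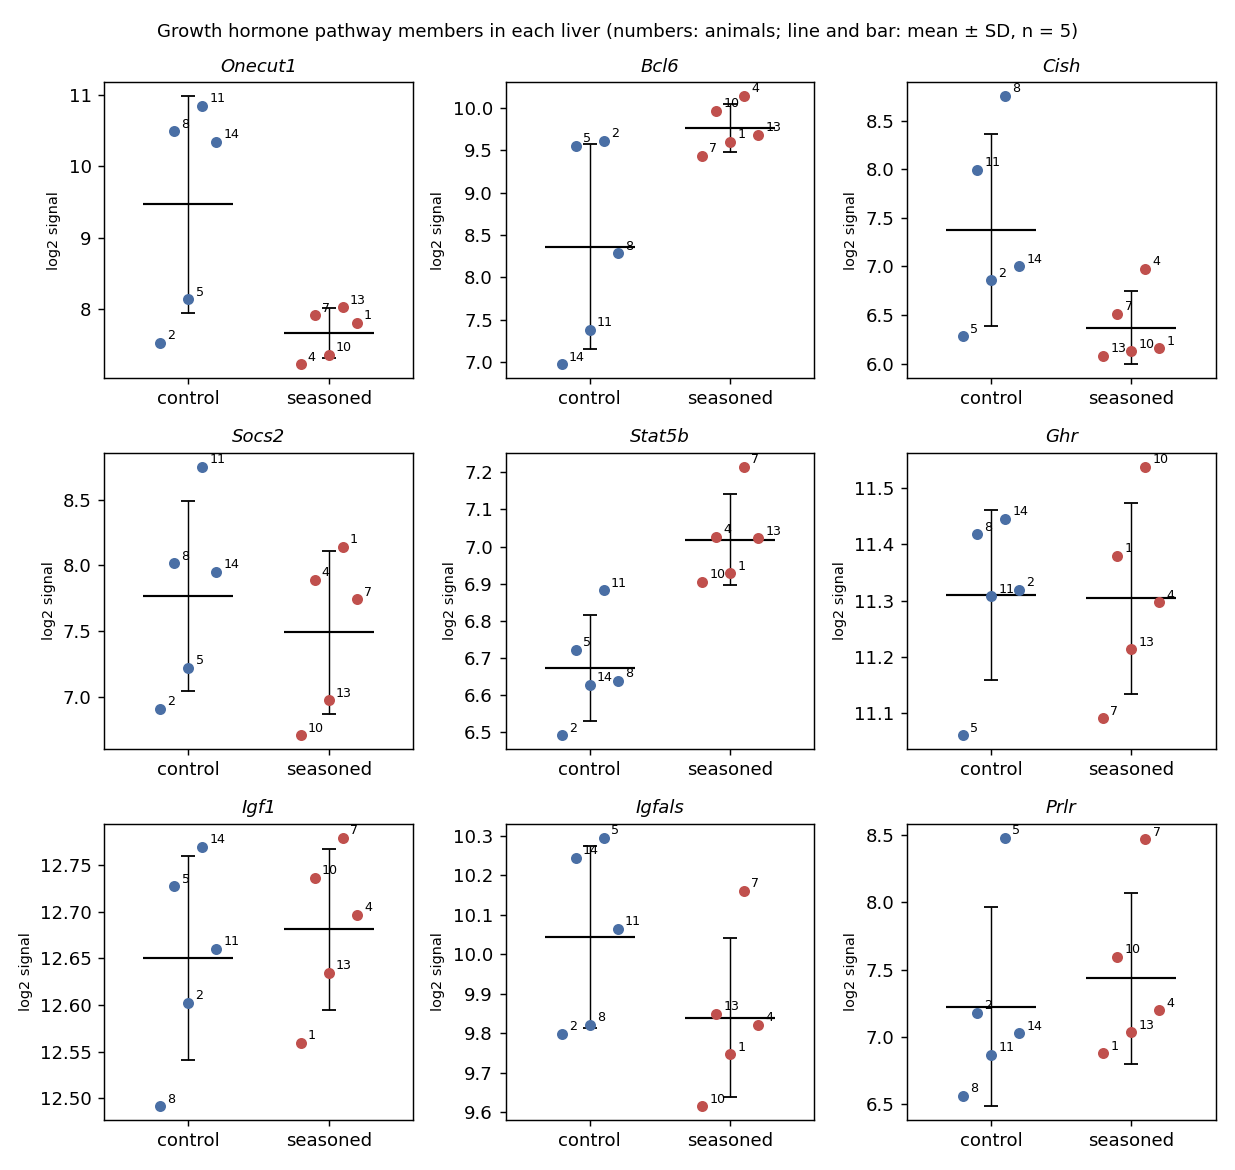
Log2 signal of the 9 members in each liver, with the animal number at each point and mean ± SD of the 5 livers per diet; each panel has its own axis. Control animals 8, 11 and 14 are high for Onecut1 (10.34 to 10.84) and low for Bcl6 (6.97 to 8.29), away from the other 7 livers, and Stat5b is the member without overlap between the diets.

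Among the feedback inhibitors, Cish, which blocks Stat5 docking at the activated receptor, was highest in control animals 8 and 11. Its signals were 6.86, 6.28, 8.76, 7.99 and 7.001 in control animals 2, 5, 8, 11 and 14, and 6.16, 6.98, 6.51, 6.13 and 6.08 in seasoned animals 1, 4, 7, 10 and 13. Control animal 14 lay only just above seasoned animal 4. The difference of the means was -1.01 ± 0.46 (SE, n = 5 per group), and -0.81 by a second probe set. Without control animal 8 it was -0.66. The seasoned mean of 6.37 lay under the array medians of 6.47 to 6.48, so that the size of the Cish difference is uncertain and no fold is given.

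Socs2, which tags the activated receptor for degradation, had signals of 6.91, 7.22, 8.02, 8.75 and 7.95 in control animals 2, 5, 8, 11 and 14. In seasoned animals 1, 4, 7, 10 and 13 it was at 8.14, 7.89, 7.74, 6.71 and 6.98. The low livers were thus the controls with low numbers and the seasoned animals with high numbers. The group means nearly matched, with a difference of -0.28 ± 0.41 (SE, n = 5 per group) that went to -0.03 without control animal 11.

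Stat5b, the transcription factor that carries the signal to the nucleus, was higher in every seasoned liver than in any control. Signals were 6.93, 7.03, 7.22, 6.90 and 7.02 in seasoned animals 1, 4, 7, 10 and 13, and 6.49, 6.72, 6.64, 6.88 and 6.63 in control animals 2, 5, 8, 11 and 14. The nearest livers of the 2 groups, seasoned animal 10 and control animal 11, were 0.02 apart. The difference was 0.35 ± 0.08 (SE, n = 5 per group), and leaving out single livers moved it no further than 0.30 and 0.40. Both means, 7.02 ± 0.12 (SD) and 6.67 ± 0.14, were close to the array medians.

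Among the receptor and the secreted products, no liver stood as far from the rest as for Onecut1 or Bcl6. Ghr ran from 11.09 to 11.54 in seasoned livers and from 11.06 to 11.45 in controls, a difference of -0.0062 ± 0.099 (SE). A second Ghr probe set differed by -0.20, with signals of 8.98 to 9.30 in seasoned livers and 9.14 to 9.55 in controls, so the 2 probe sets disagreed on the size. Igf1, the insulin-like growth factor made under growth hormone control, ran from 12.56 to 12.78 and from 12.49 to 12.77. Its difference was 0.031 ± 0.061, and the other 2 probe sets gave -0.11 and 0.0090. Igfals, the acid-labile subunit that keeps Igf1 in the circulation, ran from 9.62 to 10.16 in seasoned livers and from 9.80 to 10.30 in controls, a difference of -0.21 ± 0.13. These 3 genes overlapped between the diets.

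Prlr, a receptor of the same cytokine family that is known for higher levels in female rat liver, was set apart by 1 liver of each diet. Seasoned animal 7 was at 8.47 and control animal 5 at 8.48, while the other 8 livers lay between 6.56 and 7.59. The other 2 probe sets had the same 2 livers highest. The difference of the means was 0.21 ± 0.43 (SE, n = 5 per group), and -0.05 without seasoned animal 7 or 0.53 without control animal 5.

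**Figure D2:**
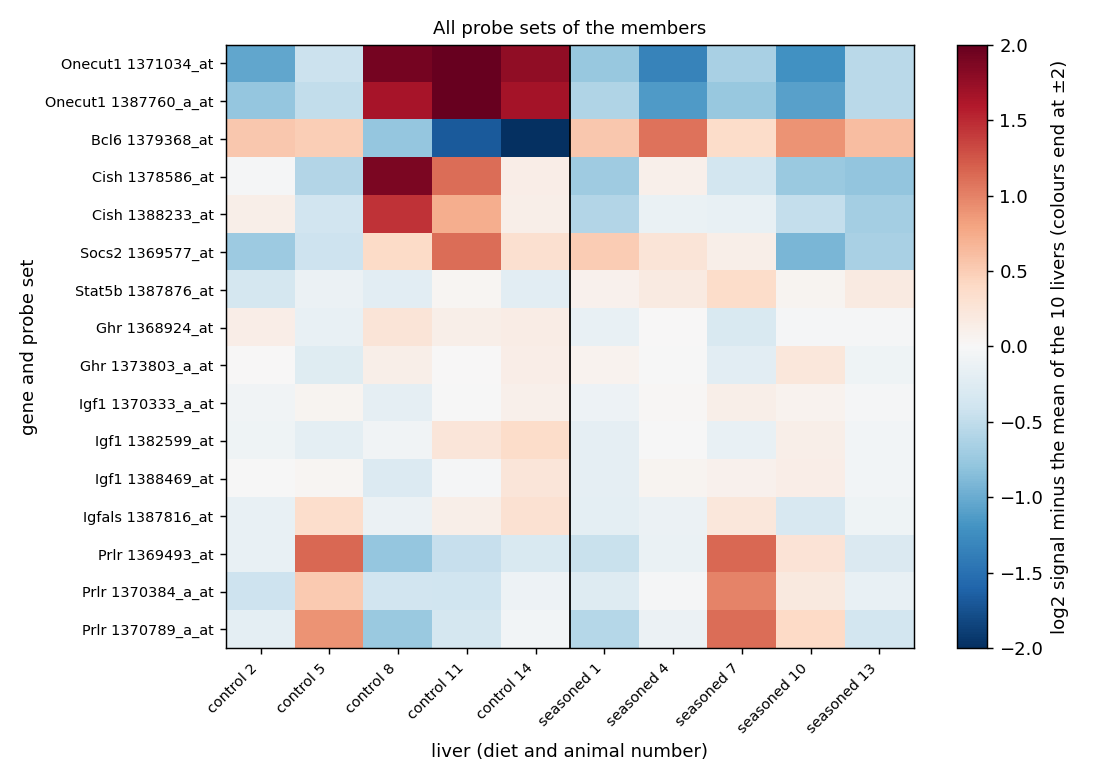
Heat map of all 16 probe sets of the members in the 10 livers, as log2 signal minus the mean of the probe set over the livers. Both Onecut1 probe sets share the red block of control animals 8, 11 and 14, both Cish probe sets are reddest in control animals 8 and 11, and all 3 Prlr probe sets are reddest in control animal 5 and seasoned animal 7.

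None of the 9 members passed the fit over all genes, where 0 of 14217 genes (0%) were called by limma at an adjusted p under 0.05. At an unadjusted p under 0.05 that fit had 669 genes (4.71%), and with array weights limma called 1 gene. Among the 2613 genes whose SD over the livers exceeded 0.01, to which all 9 members belong, 4 genes (0.153%) were called and 0 of them were members, while a block for the animal-number sets described further on gave 12 (0.459%). Centring each array on the median of those 2613 genes gave 129 calls among all 14217 genes, with Onecut1 and Bcl6 among them. No other setting of the fit over all genes called a member. Without control animal 11, 52 of the 2613 genes were called, with Stat5b among them. The groups did not overlap in 1 member, Stat5b, against 125 of all genes (0.879%), 78 (0.549%) with higher and 47 (0.331%) with lower signals in the seasoned group. Among the varying genes these shares were 2.72%, 1.61% and 1.11%. The rule of choice may have used these differences, so nothing is read from these shares. Of the 9 differences 4 were above and 5 below 0, with a median of -0.0062, beside 0.000015 over all genes and 0.017 over the varying genes.

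For Onecut1, Bcl6, Cish and Socs2 the diet difference had other values in animals with lower than with higher numbers. An earlier look at these data parted animals 1 to 7 (3 seasoned, 2 control) from animals 8 to 14 (2 seasoned, 3 control), as the place along the numbers where most genes differed. The labels name no batch there. By the array codes positions rise with the animal number within each diet, and the sets overlap in position. For Onecut1 the seasoned minus control difference was -0.18 in the lower-numbered set (animals 1 to 7) and -2.86 in the higher-numbered set (animals 8 to 14). For Bcl6 it was 0.14 and 2.27, and for Cish -0.02 and -1.81. Socs2 turned from 0.86 to -1.40. Stat5b differed by 0.45 and 0.25, and kept its direction in both sets.

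Within animals 8 to 14 the diets did not overlap for 6 members. Bcl6, Stat5b and Prlr were higher and Onecut1, Cish and Socs2 lower in the 2 seasoned livers. For Prlr the margin was narrow, with seasoned animal 13 at 7.032 and control animal 14 at 7.025. The other 2 Prlr probe sets overlapped there. Such separation of 2 against 3 livers is common, and 11.4% of the 2613 varying genes were higher and 13% were lower in that way. Within animals 1 to 7, Socs2 and Stat5b were higher without overlap, as were 14.8% of the varying genes. Ranked by how far the diet difference moved between the sets, Onecut1 was at rank 1 of 2613 genes (-2.68 ± 0.46, SE), Socs2 at rank 3 (-2.25 ± 0.38), Bcl6 at rank 4 (2.13 ± 0.56) and Cish at rank 10 (-1.79 ± 0.73). The move exceeded 1 log2 unit in 4 of the 9 members and in 2.45% of the varying genes. The other places among the first 10 went to Cyp7a1, Zfp354a, Dusp1, Slc25a30, Gadd45g and Fasn. These ranks describe genes chosen with the results known, and in the fit of this term over all genes limma called 0 genes (0%), with 909 genes at an unadjusted p under 0.05.

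The clock gene Dbp, a marker of time of day in liver, was compared because control animal 11 stood apart from the other controls in it. Dbp was at 9.08, 9.43, 9.32, 7.28 and 9.09 in control animals 2, 5, 8, 11 and 14. In seasoned animals 1, 4, 7, 10 and 13 it was at 5.97, 5.94, 6.03, 7.05 and 6.94. All seasoned livers were thus below all controls, and seasoned animals 10 and 13 were above seasoned animals 1, 4 and 7. Among control animals 8, 11 and 14, with high Onecut1 and low Bcl6, Dbp was at 9.32, 7.28 and 9.09. Without control animal 11 the difference was -1.46 for Onecut1, and it was -2.28 without control animal 2. For Bcl6 it ran from 1.06 without control animal 14 to 1.71 without control animal 2. The macrophage list (5 of 6 measured) had a mean signal of 7.61 to 8.16 in seasoned livers and 7.76 to 8.01 in controls. C1qc of this list was higher in animals 1 to 7 in both diets. It was at 8.58 to 8.70 in seasoned animals 1, 4 and 7, and 7.93 and 8.22 in 10 and 13. In controls it was at 8.52 and 8.59 in animals 2 and 5, and 8.23 to 8.40 in animals 8, 11 and 14. C1qa and Cd163 parted the sets likewise, while Cd68 and Adgre1 overlapped between the sets in controls. The part of time of day, array position or cell make-up in these differences was not tested. By the array codes all seasoned arrays were in row A and all control arrays in row B, so row and diet cannot be told apart.

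**Figure D3:**
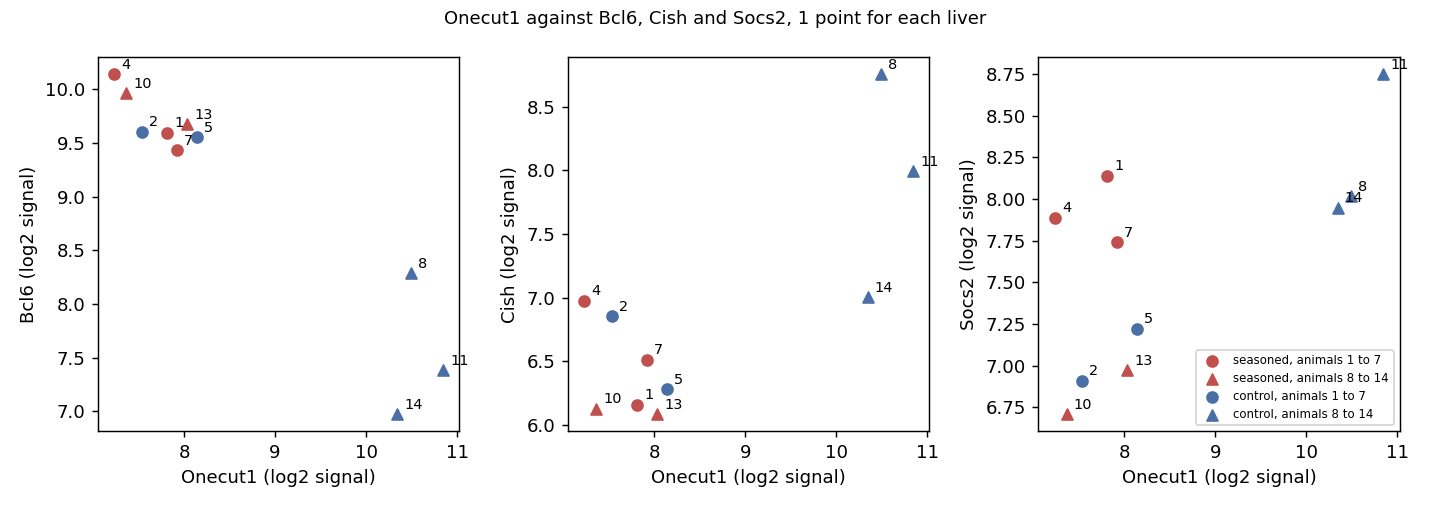
Log2 signal of Onecut1 (horizontal axis) against Bcl6, Cish and Socs2 (vertical axes), 1 point for each liver with its animal number; colour gives the diet and shape the animal-number set. Control animals 8, 11 and 14 stand to the right in all panels, low for Bcl6 (6.97 to 8.29) and above 7 for Cish, while Socs2 is also above 7.7 in seasoned animals 1, 4 and 7.

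Correlations among the members were computed on signals centred on their diet's mean, with exact two-sided permutation of the livers within diets. Onecut1, Bcl6, Cish and Prlr were parted into clusters of livers by a gap of more than 35% of their range, a limit set after the values were seen. For these genes only the livers of the larger cluster were used, 7 for Onecut1 and Bcl6, and 8 for Cish and Prlr. This left 34 of 36 pairs with at least 6 livers, 10 of them over all 10 livers. No pair passed after adjustment over the 34 pairs (smallest adjusted p by exact permutation 0.417 for Pearson and 0.443 for Spearman). By Pearson 4 pairs had an unadjusted p under 0.05, and these are described below. By Spearman the smallest p belonged to other pairs. They were Socs2 with Prlr (rho = -0.857, exact permutation p = 0.0243) and Stat5b with Ghr (rho = -0.718, exact permutation p = 0.0390).

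Among the 7 livers outside the split, Onecut1 and Bcl6 had a Pearson r of -0.803 (exact permutation p = 0.0333, adjusted p = 0.417) and a Spearman rho of -0.683 (exact permutation p = 0.121, adjusted p = 0.641). Without seasoned animals 4 and 10 the r was -0.083, so the value rests on those livers. Igf1 and Igfals, whose proteins travel together in blood, had r = 0.703 (exact permutation p = 0.0414, adjusted p = 0.417) and rho = 0.640 (exact permutation p = 0.0771, adjusted p = 0.524) over 10 livers. Their r was 0.676 without seasoned animal 1 and control animal 8, 0.875 in the lower-numbered set and 0.656 in the higher-numbered set. The Igf1 probe set used here had an uncentred r of 0.931 and 0.345 with the other 2, so the value may depend on the probe set. Ghr and Igfals had r = -0.685 (exact permutation p = 0.0381, adjusted p = 0.417) and rho = -0.683 (exact permutation p = 0.0485, adjusted p = 0.443). Without seasoned animal 10 and control animal 5 that r was -0.397, and the lower- and higher-numbered sets gave -0.988 and -0.406. The 2 Ghr probe sets had an uncentred r of 0.600 with each other, and only 1 was used. Stat5b and Igfals had r = 0.679 (exact permutation p = 0.0491, adjusted p = 0.417) and rho = 0.693 (exact permutation p = 0.0521, adjusted p = 0.443). This r was 0.743 without seasoned animal 7 and control animal 11, 0.977 in the lower-numbered set and 0.225 in the higher-numbered set. Without centring on the diets it was -0.046 over 10 livers. Each set holds few livers, so the r values of the sets are imprecise for all these pairs. The 2 livers with the highest Prlr, control animal 5 and seasoned animal 7, also had the 2 lowest Ghr signals, at 11.06 and 11.09. In the second Ghr probe set seasoned animals 7 (8.98) and 1 (9.139) were lowest, with control animal 5 next (9.142). Over the other 8 livers Ghr and Prlr had r = 0.368 (exact permutation p = 0.462, adjusted p = 0.761). This overlap of extremes was seen in the values and not tested.

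Genes most like the members were ranked by the Pearson r of diet-centred signals over the 10 livers, among 2604 varying genes other than the members. The r carries no test, and for Onecut1 and Bcl6 it includes the 3 separate control livers. For Onecut1 these were LOC102549203 (r = 0.962), Rad54l2, a helicase-like cofactor of nuclear receptors (0.956), and Atxn1l, a partner of the repressor capicua (0.946). Rad54l2 was at 7.99, 8.10 and 8.01 in control animals 8, 11 and 14 and between 6.85 and 7.24 in the other 7 livers. Each gene was read by 1 probe set. With the mean of its probe sets the diet difference went from -0.66 to -0.33 for Rad54l2 and from -0.43 to -0.30 for Atxn1l. Their likeness may therefore depend on the probe set. For Bcl6 they were the aldo-keto reductase Akr1c3 (0.967), Atxn1l (-0.941) and Suco (-0.937). Akr1c3 was at 8.16, 8.24, 7.91, 7.58 and 7.59 in control animals 2, 5, 8, 11 and 14, and between 7.71 and 8.01 in the seasoned livers.

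For Cish the most alike genes were Irf2bpl (0.954), Hhex, a homeobox factor of liver development (0.949), and Gypc, a red cell membrane protein (-0.908). The Irf2bpl diet difference went from -0.13 to -0.042 with the mean of its probe sets, so its likeness may depend on the probe set. Hhex was at 9.77, 9.30, 11.40, 11.19 and 10.18 in control animals 2, 5, 8, 11 and 14, and between 9.05 and 10.26 in the seasoned livers. It thus had the same high pair, control animals 8 and 11, as Cish. For Igf1 they were the chemokine Cxcl12 (0.913), the phosphate transporter Slc34a2 (0.894) and the adhesion molecule Nectin2 (0.869).

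**Figure D4:**
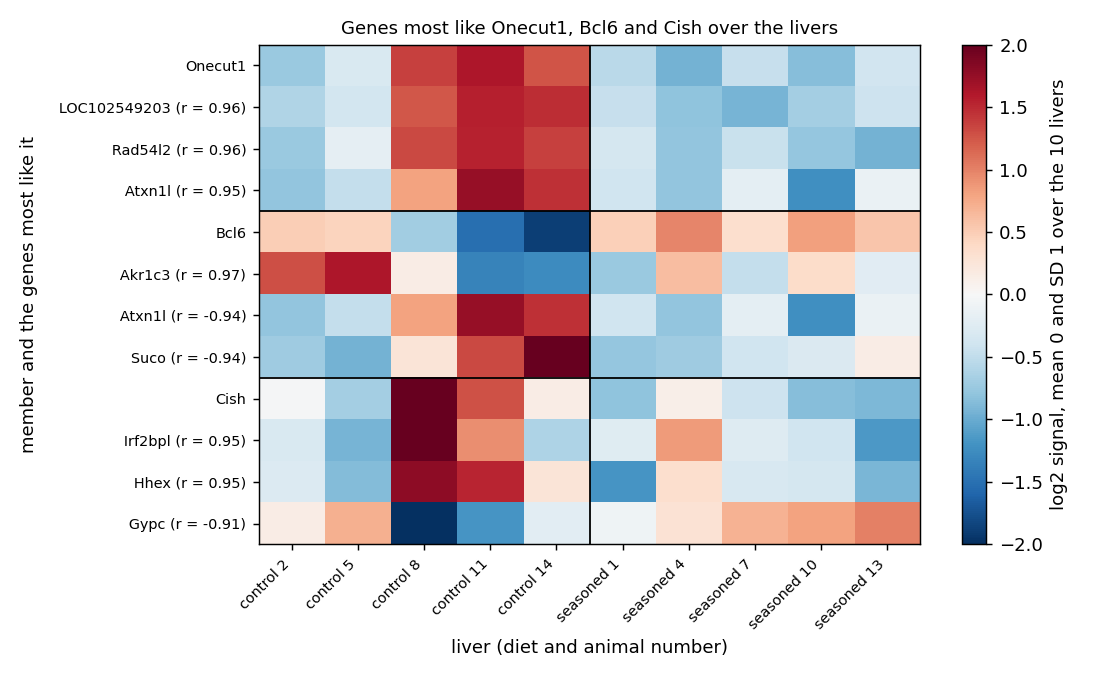
Heat map of Onecut1, Bcl6 and Cish, each above the 3 genes most like it, in the 10 livers; each row is scaled to mean 0 and SD 1, and r is the diet-centred Pearson correlation with the member. The genes of the Onecut1 block are red in control animals 8, 11 and 14, as Onecut1 is.

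Further genes of the pathway were counted in 7 lists, with 65 genes measured, and limma called 0 of them over all genes. The median difference was 0.000018 for the signal chain, 0.000095 for the IGF axis, -0.000057 for male-biased and -0.000012 for female-biased genes. It was -0.0012 for other genes known to respond to the hormone, 0.00016 for Bcl6 relatives and corepressors and -0.16 for liver transcription factors, beside 0.000015 over all genes. Near-constant genes hold such medians near 0, and their signals are not read as unchanged RNA. Over the varying genes of these 7 lists, few in most, the medians in that order were -0.088, 0.16, 0.0018, 0.051, -0.051, 0.21 and -0.16. All 2613 varying genes had a median of 0.017. Of 15 measured genes of the signal chain around the receptor only Irs2 and Stat3 varied, and Jak2, Stat5a and Socs3 were near-constant. Stat3 differed by 0.017 ± 0.005 (SE, adjusted p = 0.686 by limma), and by -0.0066 after median centring over the varying genes. Of 10 measured genes of the IGF axis 4 varied. Igfbp2, an IGF-binding protein that growth hormone is known to lower, differed by 0.53 ± 0.25 (adjusted p = 0.999 by limma), with 0.53 and 0.45 in the lower- and higher-numbered sets.

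The sex-biased genes, which read the male or female pattern of hormone pulses, gave no call in either direction. Of 9 measured male-biased genes 5 varied, 3 with positive and 2 with negative differences. Cyp2c11, the main male-specific P450, was near-constant at 13.4 in both diets. Its SDs of 0.0014 and 0.0015 in seasoned and control livers leave no room to see a change, so an unchanged RNA is not read from it. Car3, a carbonic anhydrase, differed by 0.13 ± 0.06 (SE, adjusted p = 0.999 by limma), and by 0.26 with its probe set of largest SD. Cyp2a2, Obp3 and Mup5 have close relatives in the rat genome, and their probe sets may read those too. Of 8 measured female-biased genes 5 varied. Cyp2c12, the female-specific P450, differed by 0.33 ± 0.28 (adjusted p = 0.999 by limma), which went to 0.12 without seasoned animal 1. Cux2, a female-biased factor, differed by 0.26 ± 0.27 (adjusted p = 0.999), which went to 0.0035 without seasoned animal 10.

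Among 6 other genes known to respond to growth hormone, Nnmt, nicotinamide N-methyltransferase, differed by -0.53 ± 0.13 (SE, adjusted p = 0.591 by limma). All 11 measured liver transcription factors beside Onecut1 varied, 8 with negative differences. Their median was -0.16, beside 0.017 over the 2613 varying genes, of which 1116 had negative differences. Cebpa, a master factor of hepatocytes, was at 9.56 ± 0.17 (SD, n = 5) in seasoned livers and 10.01 ± 0.15 in controls and did not overlap, a difference of -0.45 ± 0.10 (SE, adjusted p = 0.526 by limma). Cebpb differed by -0.47 ± 0.13 (adjusted p = 0.666). Foxa2 followed the animal-number sets in part, at 0.045 in the lower-numbered and -1.12 in the higher-numbered set. Others of this list moved the other way, with Nr0b2 at -1.10 and 0.25. Prox1 (-0.17 and 0.44) and Hnf4a (-0.19 and 0.34) also rose between the sets, so the list had no common movement. Onecut2, the relative of Onecut1, differed by -0.20 ± 0.13, with -0.21 and -0.09 in the 2 sets. Of 6 measured Bcl6 relatives and corepressors 2 varied, and the corepressor Bcor differed by 0.33 ± 0.12 (adjusted p = 0.886).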

How the data were processed

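The authors deposited 1 log2 signal per probe set and array for 10 livers. The base was read from the values (4.79 to 14.34). The summary and normalization methods are not given in the sources used here. Of 31099 probe sets, 57 controls were left out, 20826 had 1 gene in the platform's table and 436 had several. Symbols were updated by gene identifier (20758 matched). The probe set with the highest mean stood for each gene. Of 14217 genes 81.6% had an SD at or under 0.01 log2 units (near-constant).

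Diets were compared with limma 3.58.1 in R 4.3.3, without covariate or dim filter, with Benjamini-Hochberg adjustment over all genes. Tests on simulated data used the same fit. In those, 72% of genes changed by 1 log2 unit were recovered over 14217 genes, with 4 false calls. The simulated noise was independent and normal, and shifts of 0.5 to 4 log2 units were planted together. Members here were parted into clusters of livers, so this share may not hold for the real livers. The number of arrays limits the precision. The members, lists and alternatives were chosen with earlier results of these data known. Named beside the members were the 2 genes of each list with the smallest p and the 3 varying genes most like Onecut1, Bcl6, Cish and Igf1. Dbp, Irs2, Jak2, Socs3, Cyp2a2, Obp3, Mup5, Foxa2, Onecut2, Nr0b2, Prox1 and Hnf4a were named after their values were seen. The same holds for the macrophage markers and the first 10 genes by movement between sets. Stat5a, Igf1r, Serpina3n and Gps2, taken by the rule, were near-constant.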

Additional observations from a re-analysis of the deposited data

Results flagged for a closer look

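Socs2 moved in opposite directions in the 2 animal-number sets, with all seasoned livers above all controls within animals 1 to 7 and below them within animals 8 to 14. Among the varying genes 14.8% were higher in that way within animals 1 to 7, and 13% were lower within animals 8 to 14. The diet difference moved by -2.25 log2 units between the sets (SE 0.38). The split was placed with these same data and Socs2 was chosen with its values known, so the move and its SE are a description. In the limma fit of this term over all genes, 0 of 14217 genes were called after adjustment and 909 had an unadjusted p under 0.05. Among 58 groups of 5 livers (29 varying genes in both diets) 3 held a liver far from its group, and chance alone flags about 2.9 of so many groups. No member was among them. Cux2 was high in seasoned animal 10 (gap of 0.794 of the group's range), Nnmt low in control animal 11 (0.729) and Slc34a2, one of the genes most like Igf1, low in seasoned animal 1 (0.740).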

How the results depend on the processing

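The count of 0 calls over all genes went to 129 with median centring over the varying genes (62 higher, 67 lower), 4 when varying genes alone were tested, 2 with array position as a covariate and 1 with array weights, and ranged from 0 to 5 with 1 liver left out (5 without control animal 11). It stayed 0 without dim genes, with other probe set rules, repeated quantile normalization, a trended robust variance, a block for the animal-number set or assumed pairs of neighbouring animals. Among varying genes alone the 4 calls became 12 when blocked on the animal-number set, and 0 to 52 with 1 liver left out (leaving out a control, animal 11 gave 52, animal 2 gave 8, animal 8 gave 2 and animals 5 or 14 gave 0; of the seasoned, animal 10 gave 16 and animals 1, 4 or 7 gave 0). The cause of these changes was not tested. The count of correlated pairs ranged from 0 to 1 with 1 liver left out (Ghr with Igfals, without control animal 14). Onecut1 (-2.28 to -1.46), Bcl6 (1.06 to 1.71), Cish, Socs2, Stat5b and Igfals kept their direction with any 1 liver left out, while Ghr, Igf1 and Prlr changed sign at least once. The titles share no animal number between the groups, so the pairs of neighbouring animals are an assumption.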

Other observations

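Slc25a30, a mitochondrial carrier that ranked 7 by the move of its diet difference between the animal-number sets, had the same livers high as Onecut1. It was at 11.11, 10.95 and 11.40 in control animals 8, 11 and 14, at 9.04 and 9.86 in control animals 2 and 5, and between 8.59 and 9.01 in the seasoned livers. Gadd45g, a stress-responsive gene, was highest in control animals 8 and 11 (8.90 and 8.95), the pair that was highest for Cish, but seasoned animals 4 and 7 were close to them (8.74 and 8.44) and control animal 14 was at 6.63. Fasn and Cyp7a1, among the other genes with the largest moves, were highest in seasoned animal 13 (11.22 and 9.61). These genes were picked after their values were seen and carry no test.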
